A study of Mus musculus with 12 samples.

Results

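The genes described here encode the machinery that makes ribosomes: 42 mouse genes for subunits of RNA polymerase I (Pol I), nucleolar regulators, the core proteins of small nucleolar ribonucleoproteins (snoRNPs), and the factors that assemble the small and the large ribosomal subunit. They were chosen by symbol, and all 42 were among the 25897 symbols of the count table. Enough reads for a test were found for 41 of the 42, and 14185 symbols were tested in all. The exception was Wdr74, a large subunit assembly factor, which had 1 read in 1 library and 0 in the other 11.

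The cells were E14tg2a mouse embryonic stem cells of the 129SV background that carry cRAF-ERT2, a fusion of the RAF kinase to a hormone-binding domain, so that 4-hydroxytamoxifen (4OHT) turns on the kinase and with it ERK. There were 4 groups, untreated cells and cells after 1 h, 2 h and 4 h in 250 nM 4OHT, with clones a, b and c in each, which makes 12 libraries. All groups had the same culture history: a medium of serum, LIF and 2 µM Chir99021, followed for the 24 h before treatment by one of serum, LIF and the FGF receptor inhibitor PD173074 at 250 nM. All were also given 5 mM ethynyl uridine 15 min before harvest. The clones come from 1 cell line and no vehicle group is among the samples, so effects of the ligand and of its carrier cannot be told apart from those of the kinase. The question put by the design is how RNA levels change with time after ERK is switched on.

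In the nucleolus, Pol I transcribes the repeated ribosomal RNA genes into a long precursor. Box C/D snoRNPs guide methylation of that precursor and H/ACA snoRNPs guide pseudouridylation, while a large assembly called the small subunit processome folds and cleaves it, and a further set of factors builds the large subunit. Growth signals, ERK among them, are known to raise ribosome production, and fast-dividing cells such as embryonic stem cells keep these genes at a high level.

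Libraries held 24213641 to 31435301 counts. The members took 1.43 to 1.54% of the counts in untreated libraries, 1.43 to 1.51% at 1 h, 1.53 to 1.63% at 2 h and 1.68 to 1.69% at 4 h. The 8 genes of an ERK response list (Egr1, Fos, Ier2, Dusp6, Dusp4, Spry2, Spry4 and Spred1) had a summed level of 267 to 307 CPM (counts scaled to a common library size) in untreated cells, 827 to 1678 CPM at 1 h, 1267 to 2079 CPM at 2 h and 1060 to 2066 CPM at 4 h. Of the stem cell markers, 10 of 10 were tested, with sums of 4558 to 5040 CPM untreated, 5121 to 5752 CPM at 1 h, 5091 to 5786 CPM at 2 h and 4533 to 4552 CPM at 4 h. Single markers differed in direction, with Nanog at 243 to 315 CPM at 4 h and 655 to 725 CPM untreated, and Pou5f1 at 1033 to 1171 CPM at 4 h and 627 to 798 CPM untreated. Sums over 6 trophoblast markers, of which 4 were tested and none was at 0 throughout a group, were 3.95 to 4.74 CPM untreated, 4.33 to 4.77 CPM at 1 h, 7.69 to 9.17 CPM at 2 h and 16.4 to 54.0 CPM at 4 h. Feeder fibroblast markers, of which 3 of 8 were tested, summed to 14.0 to 28.4 CPM at 4 h and 6.73 to 7.72 CPM untreated, with Postn at 0 in every untreated, 1 h and 2 h library and Lum at 0 in every 1 h and 2 h library. Primitive endoderm markers, 6 of 6 tested, summed to 4.41 to 11.9 CPM at 4 h and 6.21 to 14.9 CPM untreated. The fibroblast sum was carried by Thy1, at 10.9 to 25.2 CPM at 4 h and 2.90 to 3.74 CPM untreated, while Pdgfrb was lower, at 0.950 to 2.38 CPM at 4 h and 3.23 to 3.46 CPM untreated. Cdx2 and Eomes carried the trophoblast sum, with Cdx2 at 4.61 to 32.8 CPM at 4 h and 0 to 0.0617 CPM untreated and Eomes at 10.4 to 19.1 CPM at 4 h and 2.59 to 3.23 CPM untreated, while Gata3 in clone a and Krt7 in clones a and c were lower at 4 h than untreated. The part of these markers in the results below was not tested.

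Most of these genes rose within 2 h and 4 h of switching on ERK, by small amounts, and none fell. In bulk samples such as these, more RNA per cell and more cells of a type cannot be told apart. At 1 h against untreated cells, 0 of the 41 tested members passed an adjusted p of 0.05 in either direction (edgeR's quasi-likelihood test, Benjamini-Hochberg adjustment over all genes tested), where 0.0775% of all genes did, while 16 members had an unadjusted p under 0.05, where 11.5% of all genes had. DESeq2 called 1 member at 1 h, Fbl, and 1.06% of all genes. At 2 h, 25 of 41 rose and none fell, where 16.2% of all genes were called, 9.56% as higher and 6.64% as lower. At 4 h, 32 of 41 rose and none fell, where 33.1% of all genes were called, 18% as higher and 15.1% as lower.

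After 1 h, 2 h and 4 h the 41 members had median log2 changes of 0.12, 0.31 and 0.37, beside -0.016, -0.023 and -0.016 over all genes tested. The log2 change was above 0 in 33, 40 and 40 members at 1 h, 2 h and 4 h, and in 6599, 6777 and 6865 of all 14185 genes. Few changes of members were large: at 2 h 2 called members passed 1.5-fold, and at 4 h 6 passed 1.5-fold and 1 of them, Rrp9, 2-fold. Of all 14185 genes tested, 1170 were called and passed 1.5-fold in either direction at 2 h. At 4 h 2733 did, and 1506 of them passed 2-fold. The treated libraries all lay above the untreated ones in 23 members at 1 h, 34 at 2 h and 33 at 4 h, where 10.9%, 19.1% and 22.8% of all genes tested did so. No member had its treated libraries all below the untreated ones at any of the 3 times, where 8.99%, 18.2% and 21.9% of all genes did.

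With clone as a block in the model, 15 members were called higher at 1 h and 37 at each of 2 h and 4 h, with none lower, where 5.41%, 20.6% and 26.2% of all genes were called higher. The 15 called at 1 h with the block were Fbl, Gar1, Nol6, Noc4l, Rrp9, Rrp12, Bysl, Nop2, Nop16, Noc2l, Rrp1, Rrs1, Bop1, Mybbp1a and Tcof1. The count at 2 h changed with the libraries kept, as did the share of all genes called. Leaving out untreated cells of clone a, b or c gave 13, 9 and 20, where 7.3%, 4.32% and 8.92% of all genes were called. Leaving out the 2 h sample of clone a, b or c gave 28, 6 and 6, where 21.8%, 2.63% and 2.35% were called. Leaving out a clone at every time gave 24 without clone a, 0 without clone b and 0 without clone c, where 22.7%, 0.683% and 0.007% of all genes were called. Calls at 2 h were kept under each omission of 1 untreated or 2 h library in 5 genes. These were Nhp2, Utp15, Bysl, Nop2 and Nop16. At 4 h, 23 of the 32 calls were kept under each omission of 1 untreated or 4 h library. Nop56, Nop58, Utp4, Wdr75, Noc2l, Pes1, Gnl3, Polr1a and Polr1b lost theirs under at least 1. The 4 h count was 34 without clone a, 19 without clone b and 11 without clone c, where 35.8%, 13.5% and 6.43% of all genes were called. Upper quartile scaling gave 17 members higher at 2 h and 27 at 4 h, with none lower. Its split over all genes was 828 higher and 1345 lower at 2 h and 2095 higher and 2694 lower at 4 h, where TMM scaling gave 1356 higher and 942 lower at 2 h and 2551 higher and 2140 lower at 4 h.

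**Figure D1:**
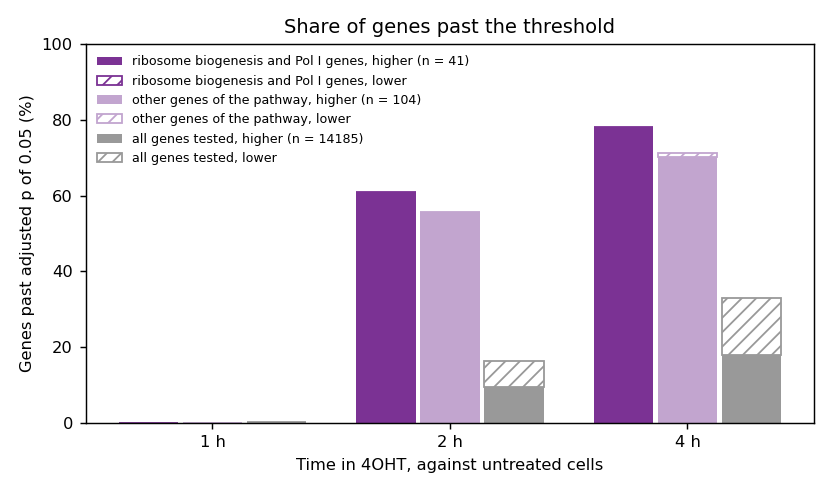
Share of genes past an adjusted p of 0.05 (%) after 1, 2 and 4 h in 4OHT against untreated cells, for the 41 ribosome biogenesis and Pol I genes, 104 other genes of the pathway and all 14185 genes tested; solid bars are higher calls and hatched bars lower calls. At 4 h the bar of the 41 members reaches 78.0%, all of it higher calls, beside 33.1% over all genes.

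**Figure D2:**
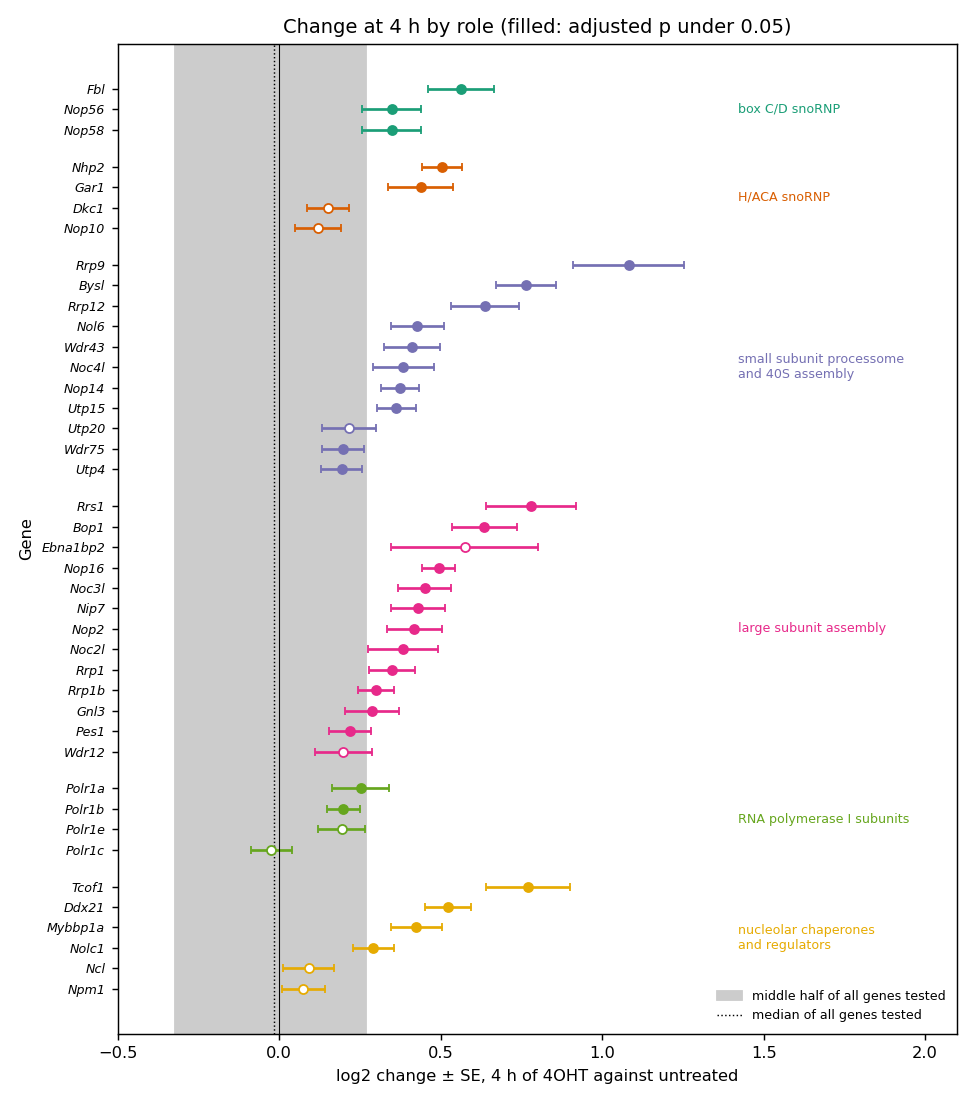
Log2 change ± SE of each of the 41 members at 4 h in 4OHT against untreated cells, grouped by role; filled points passed an adjusted p of 0.05, the grey band holds the middle 50% of all genes tested and the dotted line is their median. Only Polr1c lies left of 0, at -0.024, and Rrp9 lies furthest right, at 1.08.

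Promoter sequences were available for 35 of the 42 members in RefSeq (GRCm38.p6), and 2 short motifs were looked for on both strands in the 250 bases before each start. The ETS-type core CCGGAA, bound by the ETS factors that ERK is known to phosphorylate, was found in 13 of 35 members with a window (37.1%) and in 2571 of 10861 tested genes with one (23.7%). The 13 and the 35 include Wdr74, which was not tested, and 12 tested members had the core. The E-box CACGTG, the preferred site of MYC and related factors, was found in 1 of 35 (2.86%), Nop2, and in 1059 of 10861 (9.75%). A gene was counted where at least 1 of its windows held the motif. By window, the core was in 13 of 39 of the members (33.3%) and in 3952 of all 32851 available (12%). The E-box was in 1 of 39 windows (2.56%) and in 1978 of 32851 (6.02%). CACGTG is its own reverse complement, CCGGAA reads TTCCGG on the other strand, and in the windows printed no match of the E-box overlaps one of the core. A match is a description and no sign of binding. The 4 windows below are shown because they hold a match within 100 bases of the start and no annotated exon. They are printed 5′ to 3′ on the strand of the gene, with the matches to either motif in capitals.
Gar1, chr3:129831397-129831496, minus strand: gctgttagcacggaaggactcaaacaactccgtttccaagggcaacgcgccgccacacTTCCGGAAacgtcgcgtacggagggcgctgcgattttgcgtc
Nop2, chr6:125131783-125131882, plus strand: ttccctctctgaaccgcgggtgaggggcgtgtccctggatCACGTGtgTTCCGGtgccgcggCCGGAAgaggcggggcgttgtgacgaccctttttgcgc
Noc3l, chr19:38819238-38819337, minus strand: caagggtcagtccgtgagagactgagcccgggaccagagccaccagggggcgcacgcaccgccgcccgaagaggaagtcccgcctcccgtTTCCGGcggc
Nolc1, chr19:46075747-46075846, plus strand: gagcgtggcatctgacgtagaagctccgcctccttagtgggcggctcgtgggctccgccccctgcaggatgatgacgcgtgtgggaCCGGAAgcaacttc
The Gar1 window holds the core on both strands in 1 overlapping match, and the Nop2 window holds the E-box followed after a few bases by ETS-type cores in both directions. Of the 12 tested members with the core, 11 rose at 4 h with a median log2 change of 0.42, and of the 22 with a window but no core, 15 rose with a median of 0.29. Over all genes tested 18% were called higher at 4 h, and that share was not split by the core. At 4 h against 2 h the member medians were 0.0434 with the core and 0.0425 without. This division was made after the values were seen and is given without a test.

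The 4 Pol I subunits among the members changed little. At 1 h 0 of 4 passed, at 2 h 1 of 4 rose and at 4 h 2 of 4, with a median log2 change of 0.20 at 4 h. With clone as a block 0, 4 and 3 of 4 were called higher in time order, where 5.41%, 20.6% and 26.2% of all genes were. Polr1a, the largest subunit and part of the active site, stood at 316, 312 and 310.1 CPM untreated, 319, 349 and 339 CPM at 1 h, 333, 391 and 357 CPM at 2 h and 328, 422 and 367 CPM at 4 h, in the order of clones a, b and c, which every list of 3 values below follows. Its 4 h libraries all lay above the untreated ones, and clone b was highest at each treated time. The log2 change was 0.21 ± 0.089 at 2 h (adjusted p = 0.126, and 0.024 with clone as a block) and 0.25 ± 0.089 at 4 h (adjusted p = 0.0476), and the 4 h call was lost in 5 of the 6 omissions of 1 library.

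Polr1b, the second catalytic subunit, stood at 232, 240.4 and 232 CPM untreated, 242, 238 and 232 CPM at 1 h, 265, 269 and 261 CPM at 2 h and 272, 277 and 259 CPM at 4 h. Untreated and 1 h libraries overlapped, and 2 h and 4 h libraries all lay above both. It rose by 0.18 ± 0.050 on the log2 scale at 2 h (adjusted p = 0.0381) and by 0.20 ± 0.050 at 4 h (adjusted p = 0.0117). Polr1e, a subunit particular to Pol I that helps it start and elongate, stood at 50.2, 48.5 and 46.5 CPM untreated, 48.2, 47.3 and 49.2 CPM at 1 h, 58.9, 52.0 and 59.1 CPM at 2 h and 57.8, 52.6 and 55.6 CPM at 4 h. Its 2 h and 4 h libraries lay above the untreated ones, but the changes of 0.23 ± 0.073 at 2 h and 0.19 ± 0.073 at 4 h missed the threshold (adjusted p = 0.0538 and 0.0612), and passed it with clone as a block (0.0113 and 0.0174).

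Polr1c, which Pol I shares with RNA polymerase III, had a different course from the other Pol I subunits among the members. Its level was 158, 167 and 171 CPM untreated, 176, 171 and 175 CPM at 1 h, 183, 196 and 191 CPM at 2 h and 174, 150.2 and 163 CPM at 4 h. The 4 h libraries overlapped the untreated ones and all lay below the 2 h ones. The log2 change against untreated cells was 0.20 ± 0.064 at 2 h (adjusted p = 0.051, 0.0177 with the block) and -0.024 ± 0.064 at 4 h (adjusted p = 0.802). At 4 h against 2 h it was -0.23 ± 0.064, which missed the threshold (adjusted p = 0.0654) and passed it with the block (0.0184) and in DESeq2. It was the only tested member with a log2 change below 0 at 4 h against untreated cells, and that sign turned when the 4 h sample of clone b was left out (0.028).

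**Figure D3:**
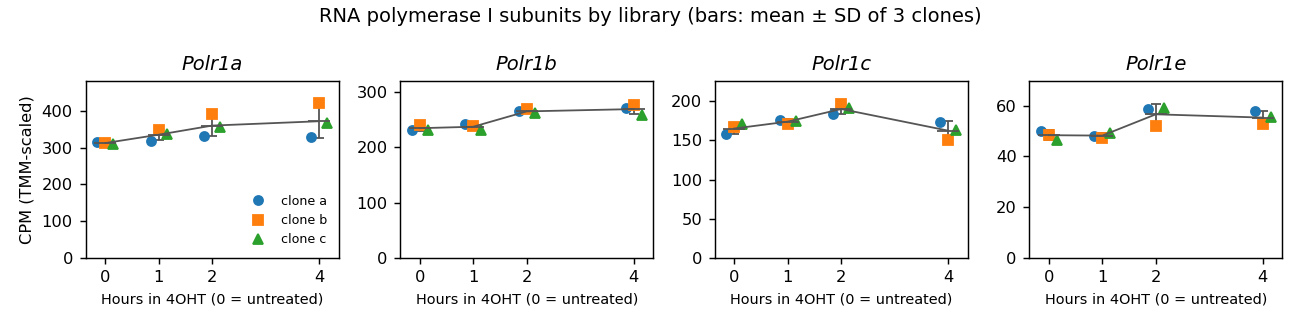
Level in CPM (TMM-scaled) of the 4 Pol I subunits in each library against hours in 4OHT, with 0 for untreated cells; symbols are clones, and bars are the mean ± SD of 3 clones. Polr1a, Polr1b and Polr1e are higher at 2 h and 4 h than untreated, and Polr1c at 4 h, at 150.2 to 174 CPM, overlaps its untreated range of 158 to 171 CPM.

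Among nucleolar regulators 0 of 6 passed at 1 h, and 4 of 6 rose at 2 h and 4 of 6 at 4 h, with a median log2 change of 0.36 at 4 h. With the block 2, 4 and 4 were called higher in time order. Tcof1 encodes treacle, which holds Pol I and its activator at the ribosomal RNA genes and is mutated in Treacher Collins syndrome in human. It stood at 195, 245 and 293 CPM untreated, 315, 325 and 339 CPM at 1 h, 301, 330.0 and 384 CPM at 2 h and 392, 419 and 440.0 CPM at 4 h. Every treated library lay above every untreated one, and clone c was the highest at each time. Tcof1 rose by 0.47 ± 0.13 at 2 h (adjusted p = 0.0341) and by 0.77 ± 0.13 at 4 h (adjusted p = 0.00149), a fold of 1.71. At 1 h it was at 0.42 ± 0.13 (adjusted p = 0.29, and 0.0113 with the block).

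Ddx21, an RNA helicase that couples Pol I transcription to rRNA processing, stood at 867, 809 and 837 CPM untreated, 873, 948 and 928 CPM at 1 h, 1023, 1102 and 1072 CPM at 2 h and 1089, 1288 and 1233 CPM at 4 h. All 3 treated groups lay above the untreated one without overlap, and clone b was highest in each of them. The gene rose by 0.35 ± 0.072 at 2 h (adjusted p = 0.014) and by 0.52 ± 0.072 at 4 h (adjusted p = 0.000535), and stood at 0.13 ± 0.072 at 1 h. Mybbp1a, a nucleolar protein that binds the MYB factor and Pol I, rose by 0.31 at 2 h and 0.42 at 4 h. Nolc1, a chaperone of snoRNPs whose promoter is printed above, rose by 0.25 at 2 h and 0.29 at 4 h.

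The remaining 2 regulators, the most abundant of all members by length-scaled level, did not pass the threshold at any time. Npm1, nucleophosmin, a histone and ribosome chaperone, stood at 2574, 2302 and 2203 CPM untreated, 2296, 2257 and 2350.4 CPM at 1 h, 2498, 2526 and 2492 CPM at 2 h and 2440.2, 2517 and 2495 CPM at 4 h. The untreated libraries spanned the treated ones, with the untreated library of clone a the highest of all 12. Its log2 change was 0.074 ± 0.067 at 4 h (adjusted p = 0.42), and upper quartile scaling turned it to -0.0029. Ncl, nucleolin, which binds the rRNA precursor, averaged 2308 ± 67.4 CPM at 4 h and 2168 ± 239 CPM untreated (SD, n = 3 each), and its log2 change was 0.058 (1 h), -0.070 (2 h) and 0.090 (4 h).

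All 3 core proteins of box C/D snoRNPs rose at 2 h and at 4 h. Fbl, fibrillarin, the methyltransferase of these particles, stood at 18.6, 17.0 and 20.6 CPM untreated, 26.5, 26.2 and 26.7 CPM at 1 h, 23.2, 24.2 and 28.3 CPM at 2 h and 27.2, 26.3 and 29.6 CPM at 4 h. Each treated library lay above each untreated one, already at 1 h, and clone c was highest at every time. The log2 change was 0.50 ± 0.10 at 1 h (adjusted p = 0.192, 0.00577 with the block), 0.43 ± 0.10 at 2 h (adjusted p = 0.0212) and 0.56 ± 0.10 at 4 h (adjusted p = 0.00216). The 1 h value was the largest of any member at that time.

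Nop56, which with Nop58 clamps the guide RNA in the particle, stood at 342, 346 and 329.8 CPM untreated, 355, 396 and 384 CPM at 1 h, 391, 464 and 445 CPM at 2 h and 377, 478 and 441 CPM at 4 h. Clone a showed the smallest rise, and the treated libraries still all lay above the untreated ones at 2 h and 4 h. Nop56 rose by 0.35 ± 0.091 at 2 h (adjusted p = 0.0276) and by 0.35 ± 0.091 at 4 h (adjusted p = 0.0135). Nop58 rose by 0.30 at 2 h and 0.35 at 4 h, after 0.057 at 1 h. Both lost their 4 h call when the 4 h sample of clone b was left out.

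Among the 4 H/ACA snoRNP proteins the changes were uneven, with 1 rising at 2 h and 2 at 4 h. With the block 1, 3 and 3 were called higher in time order. Nhp2, an RNA-binding core protein, stood at 177, 195 and 197 CPM untreated, 231, 211 and 212 CPM at 1 h, 246, 244 and 258 CPM at 2 h and 265, 274 and 268 CPM at 4 h. Its lowest treated library lay above its highest untreated one at each time. Nhp2 rose by 0.40 ± 0.061 at 2 h (adjusted p = 0.00523) and by 0.50 ± 0.062 at 4 h (adjusted p = 0.0003), and stood at 0.20 ± 0.061 at 1 h (adjusted p = 0.29). Gar1, needed for the modification step and shown above with its promoter, rose by 0.44 ± 0.10 at 4 h (adjusted p = 0.00721). Its changes of 0.33 at 1 h and 0.31 at 2 h missed the threshold (adjusted p = 0.29 and 0.0574) and passed it with the block (0.0174 and 0.00501), that at 2 h also with RLE size factors, in DESeq2 and when the untreated sample of clone c was left out.

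Nop10, the smallest H/ACA core protein, stood at 142, 159 and 148 CPM untreated, 140.1, 153 and 146 CPM at 1 h, 158, 165 and 169.7 CPM at 2 h and 151, 176 and 161 CPM at 4 h. Each treated group overlapped the untreated one, while the 2 h libraries all lay above the 1 h ones. Against untreated cells the log2 change was 0.13 ± 0.072 at 2 h (adjusted p = 0.214, and 0.0389 with the block). At 4 h it was 0.12 ± 0.072 (adjusted p = 0.224). Dkc1, dyskerin, the pseudouridine synthase, was at -0.062 (1 h), 0.11 (2 h) and 0.15 (4 h) and missed the threshold at 4 h (adjusted p = 0.096). It passed there with the block (0.0437), when the 4 h sample of clone a was left out and without clone a.

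Small subunit factors included Rrp9, the member with the largest change at 4 h. Of these factors 0 of 11 passed at 1 h, 8 of 11 rose at 2 h and 10 of 11 at 4 h. Their median log2 change was 0.38 at 4 h. With the block 5, 10 and 11 were called higher in time order. Rrp9, the protein particular to the U3 snoRNP that guides the first cleavages of the precursor, stood at 72.4, 104 and 115 CPM untreated, 131, 138 and 139 CPM at 1 h, 132, 169 and 195 CPM at 2 h and 177, 221 and 219 CPM at 4 h. The untreated library of clone a was the lowest of all 12, and each treated group lay above the untreated one. Rrp9 rose by 0.77 ± 0.17 at 2 h (adjusted p = 0.0174) and by 1.08 ± 0.17 at 4 h (adjusted p = 0.00107), a fold of 2.12. At 1 h it was at 0.49 ± 0.17 (adjusted p = 0.327, 0.0125 with the block). Exons of Rrp9 overlap Parp3 on the opposite strand, and the strand setting of the counting is not given in the sources used here.

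Bysl, bystin, needed for maturation of the small subunit precursor, stood at 70.6, 79.4 and 80.1 CPM untreated, 96.9, 101 and 96.0 CPM at 1 h, 97.3, 117 and 117 CPM at 2 h and 117, 140.5 and 133 CPM at 4 h. Treated and untreated libraries did not overlap at any time. Bysl rose by 0.53 ± 0.093 at 2 h (adjusted p = 0.00835) and by 0.76 ± 0.093 at 4 h (adjusted p = 0.000294), a fold of 1.70. At 1 h it was at 0.35 ± 0.093 (adjusted p = 0.28, 0.0077 with the block). It shares exon sequence with Ccnd3 on the opposite strand.

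Utp15, a processome subunit of the group that also acts on rRNA transcription, stood at 137, 124 and 133 CPM untreated, 138, 138 and 147 CPM at 1 h, 164, 165 and 172 CPM at 2 h and 160.1, 174 and 173 CPM at 4 h. Its 1 h libraries lay just above the untreated ones and its 2 h and 4 h libraries well above them. Utp15 rose by 0.34 ± 0.062 at 2 h (adjusted p = 0.00879) and by 0.36 ± 0.062 at 4 h (adjusted p = 0.00157). Rrp12, which acts in export of the precursors in yeast, rose by 0.51 at 2 h and 0.64 at 4 h, after 0.34 at 1 h.

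Of the other processome proteins, Nol6 was at 0.26 (1 h), 0.26 (2 h) and 0.43 (4 h). Wdr43 was at 0.072 (1 h), 0.39 (2 h) and 0.41 (4 h). Noc4l was at 0.26 (1 h), 0.31 (2 h) and 0.38 (4 h). All 3 rose at 4 h, and at 2 h Wdr43 and Noc4l did. Nol6 missed the threshold at 2 h (adjusted p = 0.0525) and passed it with the block (0.00247) and in DESeq2. Nop14, the partner of Noc4l, rose by 0.31 at 2 h and 0.37 at 4 h. Utp4 rose by 0.21 at 2 h and 0.19 at 4 h, and Wdr75 by 0.20 at 4 h. Both belong with Utp15 and Wdr43 to the same subcomplex.

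Utp20, a large scaffold protein of the processome, was the 1 small subunit member that did not rise at 4 h. Its level was 471, 427 and 411 CPM untreated, 402, 441 and 445 CPM at 1 h, 465, 491 and 465 CPM at 2 h and 448, 554 and 519 CPM at 4 h. In clone a the untreated library was the highest of its 4, while in clones b and c the 4 h library was. The log2 change was 0.22 ± 0.084 at 4 h (adjusted p = 0.0682, 0.0357 with the block).

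Of the 13 tested large subunit factors 0 passed at 1 h, 8 rose at 2 h and 11 at 4 h, with a median log2 change of 0.42 at 4 h. With the block 6, 13 and 13 were called higher in time order. Nop16, a nucleolar factor of the large subunit precursor, stood at 88.4, 89.7 and 88.6 CPM untreated, 98.5, 100.4 and 99.9 CPM at 1 h, 113, 118 and 116 CPM at 2 h and 122, 130.1 and 124 CPM at 4 h. Libraries of 1 time lay close together, and each time lay wholly above the one before. Nop16 rose by 0.38 ± 0.052 at 2 h (adjusted p = 0.00341) and by 0.49 ± 0.052 at 4 h (adjusted p = 0.000163), and at 1 h stood at 0.16 ± 0.052 (adjusted p = 0.29, 0.0415 with the block).

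Noc3l, a component of early large subunit precursors with Noc2l, stood at 156, 156 and 147 CPM untreated, 139.9, 158 and 159.8 CPM at 1 h, 180.1, 203 and 207 CPM at 2 h and 190.2, 225 and 211 CPM at 4 h. It was flat at 1 h and then higher in every library. Noc3l rose by 0.36 ± 0.082 at 2 h (adjusted p = 0.0182) and by 0.45 ± 0.082 at 4 h (adjusted p = 0.00225), against -0.0026 ± 0.082 at 1 h. Its promoter, printed above, holds the ETS-type core near the start.

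Rrs1, which helps to bring the 5S particle into the precursor, stood at 49.8, 56.2 and 57.9 CPM untreated, 69.1, 82.1 and 71.1 CPM at 1 h, 69.0, 90.7 and 87.8 CPM at 2 h and 77.0, 109.7 and 94.6 CPM at 4 h. Clone b was highest at each treated time, and no treated library reached down to the untreated ones. Rrs1 rose by 0.59 ± 0.14 at 2 h (adjusted p = 0.0202) and by 0.78 ± 0.14 at 4 h (adjusted p = 0.00202), a fold of 1.72. At 1 h it was at 0.44 ± 0.14 (adjusted p = 0.29, 0.00973 with the block).

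The complex of Pes1, Bop1 and Wdr12, needed for processing of the large subunit rRNA, had 1 member called at 2 h and 2 at 4 h. Bop1 rose by 0.46 ± 0.10 at 2 h and 0.63 ± 0.10 at 4 h, after 0.36 ± 0.10 at 1 h. Pes1 was at 0.19 ± 0.065 at 2 h (adjusted p = 0.0633, 0.0067 with the block) and rose by 0.22 ± 0.065 at 4 h (adjusted p = 0.0239). Wdr12 was at 0.14 ± 0.088 at 2 h and 0.20 ± 0.088 at 4 h (adjusted p = 0.288 and 0.104), and passed at both times with the block (adjusted p = 0.0364 and 0.00445). The differences between the 3 genes were not tested.

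Ebna1bp2, a nucleolar factor of large subunit assembly, differed between clones at every time. It stood at 185, 267 and 187 CPM untreated, 211, 283 and 206 CPM at 1 h, 233, 348 and 242 CPM at 2 h and 257, 419.6 and 274 CPM at 4 h. Clone b was far above the other clones at every time, untreated cells included, while each clone was at its highest at 4 h and its lowest untreated. At 2 h the change was 0.36 ± 0.23 (adjusted p = 0.277, 0.000533 with the block). Without the block the change at 4 h was 0.57 ± 0.23 (adjusted p = 0.0726), and with the block it passed (adjusted p = 1.3e-05).

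The remaining large subunit genes followed the group. Nop2, a methyltransferase of the large subunit rRNA, rose by 0.46 at 2 h and 0.42 at 4 h. Nip7, needed for the large subunit rRNA in yeast, rose by 0.45 at 2 h and 0.43 at 4 h, against 0.10 at 1 h. Noc2l, the partner of Noc3l, was at 0.35 at 2 h (adjusted p = 0.0501, 0.000268 with the block) and rose by 0.38 at 4 h. Rrp1 rose by 0.31 at 2 h and 0.35 at 4 h, and its paralog Rrp1b by 0.30 at 4 h. Gnl3, nucleostemin, a GTPase first known from stem cells, rose by 0.31 at 2 h and 0.29 at 4 h.

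**Figure D4:**
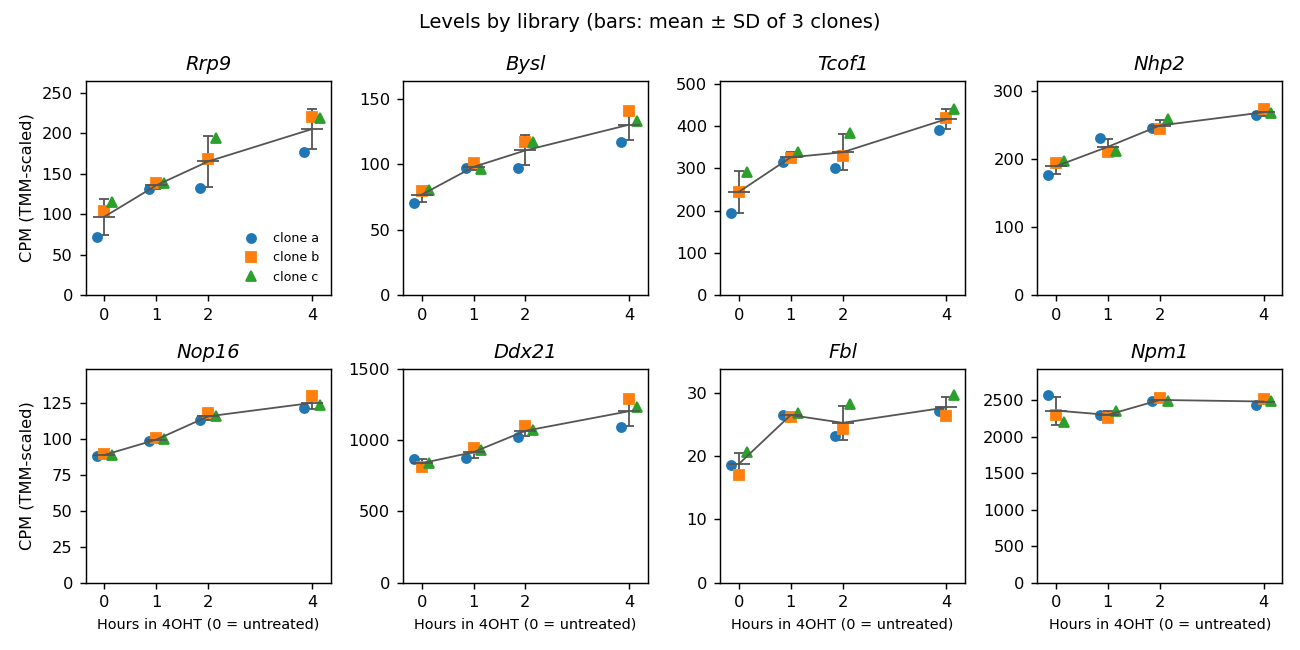
Level in CPM (TMM-scaled) of 8 members in each library against hours in 4OHT, with 0 for untreated cells; symbols are clones, and bars are the mean ± SD of 3 clones. Rrp9, Bysl, Tcof1, Nhp2, Nop16 and Ddx21 have their highest mean at 4 h, Fbl is already near its 4 h level at 1 h, and Npm1 stays between 2203 and 2574 CPM throughout.

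Over time, 32 of 41 members had their highest mean level at 4 h and the other 9 at 2 h, and 31 had their lowest in untreated cells. Means were higher at each later time in 23. An F test over the 3 treated times called 30 of 41 members, where 27.4% of all genes tested were called. That count was 19 when the 4 h sample of clone c was left out, 28 without clone a, 4 without clone b and 0 without clone c, where 14.8%, 31.2%, 4.75% and 0.189% of all genes were called. Dkc1, Nop10, Utp20, Wdr75, Noc3l, Wdr12, Polr1e and Npm1 had their lowest mean at 1 h, in each case below the untreated mean by less than the SD of the untreated libraries.

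Between adjacent times no member was called in the model without the block. At 2 h against 1 h, 0 of 41 members passed (background 0.0634%), 18 had an unadjusted p under 0.05 (16.2% of all genes), DESeq2 called 8 (4.26% of all genes), and the block gave 19 higher and none lower, where 7.13% of all genes were called higher with it. The largest step was that of Noc3l at 0.37 ± 0.082 (adjusted p = 0.0957, 0.00546 with the block), followed by Nip7 at 0.35 ± 0.084 and Wdr43 at 0.32 ± 0.086. Noc3l passed when the 2 h sample of clone a was left out, where 1.1% of all genes were called. The median step was 0.16 at 2 h against 1 h and 0.060 at 4 h against 2 h.

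At 4 h against 2 h, 0 of 41 passed (background 4.68%), 5 had an unadjusted p under 0.05 (20.7% of all genes), DESeq2 called 1, Polr1c as lower (9.68% of all genes), and the block gave 6 higher and 1 lower, where 12% and 9.98% of all genes were called so with it. The 6 were Rrp9 at 0.31 ± 0.17, Tcof1 at 0.30 ± 0.13, Bysl at 0.24 ± 0.092, Ebna1bp2 at 0.21 ± 0.23, Nol6 at 0.17 ± 0.082 and Rrp1b at 0.15 ± 0.055, and the 1 was Polr1c. Ddx21 and Polr1c passed when the 4 h sample of clone a was left out, where 10.2% of all genes were called. The comparisons with untreated cells share their untreated libraries, and those of adjacent times share the 2 h libraries.

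Within clones, each treated library can be set against the untreated library of the same clone. Given by clone in the order used above, the 41 members had median log2 changes of 0.077, 0.16 and 0.12 after 1 h, of 0.24, 0.38 and 0.33 after 2 h, and of 0.29, 0.46 and 0.34 after 4 h. Members above 0 numbered 28, 34 and 39 at 1 h, 37, 41 and 40 at 2 h, and 37, 40 and 40 at 4 h. Of all 14185 genes, 6591, 6965 and 7104 were above 0 at 1 h. At 2 h 7102, 6815 and 6743 were, and at 4 h 6862, 6953 and 6923. Clone a had the smallest median of the members at each time. For the ERK response list the medians were 1.58, 1.51 and 1.55 after 1 h, 2.46, 2.78 and 2.92 after 2 h and 1.63, 2.92 and 2.80 after 4 h, so clone a was lowest there too at the later times. Members moved the same way, upward, in all 3 clones in 27 cases at 1 h, 37 at 2 h and 36 at 4 h, where 22.5%, 31.9% and 31.1% of all genes tested did.

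Clone a was not lowest in every gene. Its largest value at 1 h was that of Rrp9, at 0.85, and at 4 h Rrp9 was at 1.29 in clone a, 1.09 in clone b and 0.93 in clone c. Its lowest value at 1 h was that of Utp20, at -0.23, and at 2 h and 4 h that of Ncl, at -0.18 and -0.097. In clones b and c the lowest at 4 h was Polr1c, at -0.15 and -0.064.

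**Figure D5:**
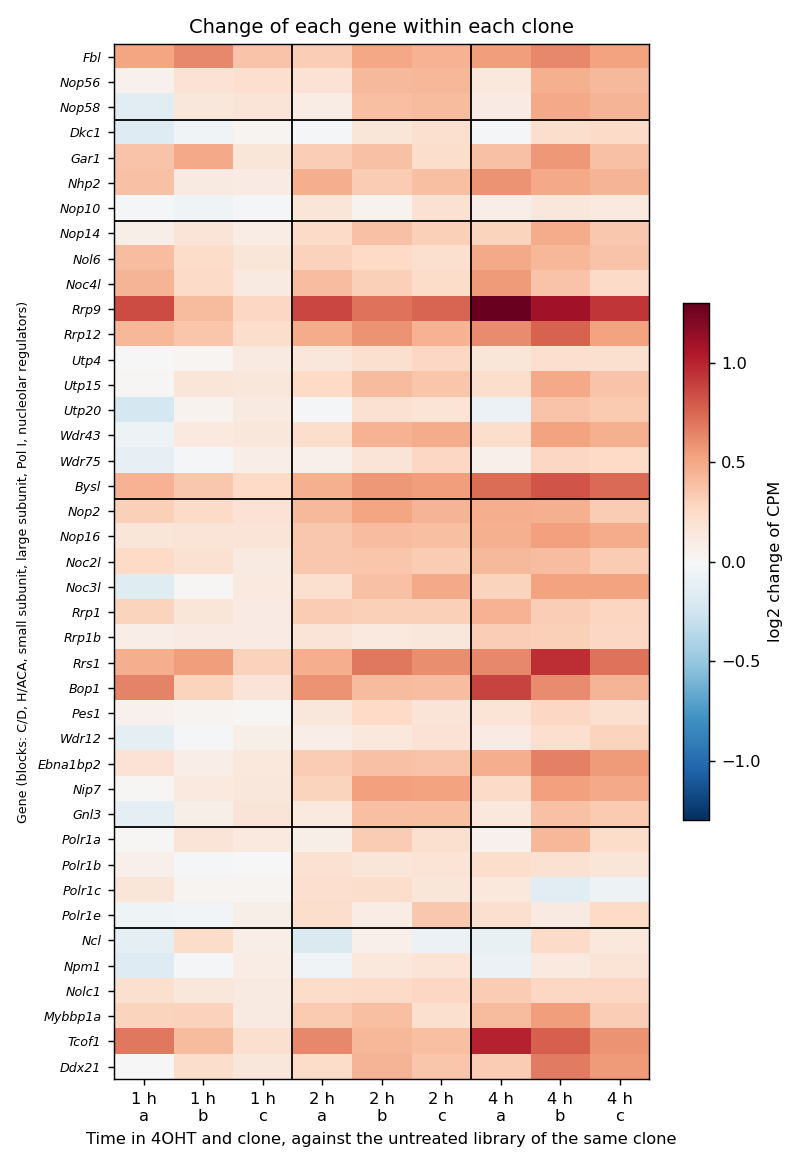
Log2 change of CPM of each of the 41 members in each treated library against the untreated library of the same clone, in columns by time and clone; red is higher and blue lower, and horizontal lines part the roles. Nearly all cells at 2 h and 4 h are red, blue cells are most frequent in clone a at 1 h, and Rrp9 in clone a at 4 h is the deepest red, at 1.29.

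Other genes of the same pathway, 104 tested of 106 found, were called at shares near those of the members. Of them 0 passed at 1 h, 58 rose at 2 h, and 73 rose and 1 fell at 4 h, which is 0%, 55.8% and 71.2% called beside the background given above. At 1 h 29 had an unadjusted p under 0.05, DESeq2 called 2 and the block gave 19 higher, and with the block 84 were higher and 1 lower at 2 h and at 4 h alike. Median log2 changes of these genes were 0.087, 0.30 and 0.32 in time order. By list, 5 of 9 other Pol I subunits, 4 of 8 Pol I factors, 30 of 38 small subunit factors and 34 of 49 large subunit factors rose at 4 h.

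Among the other Pol I subunits, Polr1d, the partner of Polr1c that is shared with RNA polymerase III, stood at 74.0, 75.3 and 73.6 CPM untreated, 77.3, 74.9 and 80.9 CPM at 1 h, 87.9, 89.5 and 94.9 CPM at 2 h and 86.6, 108 and 100.4 CPM at 4 h. It rose by 0.29 ± 0.079 at 2 h and 0.40 ± 0.079 at 4 h (adjusted p = 0.0337 and 0.00338), and its treated libraries did not overlap the untreated ones at either time. Polr2h, a subunit of all 3 nuclear polymerases that overlaps Clcn2 on the other strand, rose by 0.37 ± 0.068 at 2 h and 0.31 ± 0.068 at 4 h (adjusted p = 0.00945 and 0.00563). Twistnb, a further Pol I subunit, had a course like that of Polr1c, with means of 83.5, 83.0, 91.9 and 80.6 CPM in time order. Its log2 change was -0.050 ± 0.063 at 4 h against untreated cells (adjusted p = 0.569). At 4 h against 2 h it was -0.19 ± 0.063 (adjusted p = 0.112, 0.0189 with the block).

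The TAF1 proteins, which with TBP form the selectivity factor that places Pol I on its promoter, differed in direction. Taf1c, which overlaps Dnaaf1 on the other strand, stood at 10.7, 15.4 and 18.3 CPM untreated, 20.5, 20.0 and 22.3 CPM at 1 h, 18.6, 24.0 and 27.3 CPM at 2 h and 26.8, 31.7 and 33.9 CPM at 4 h and rose by 1.06 ± 0.19 at 4 h (adjusted p = 0.00202). Taf1a rose by 0.57 ± 0.086 at 2 h and 0.37 ± 0.086 at 4 h (adjusted p = 0.00492 and 0.00799). Taf1d, whose exons overlap other genes, rose by 0.34 ± 0.084 at 2 h (adjusted p = 0.0241). At 4 h Taf1d was at 0.18 ± 0.084 and missed the threshold (adjusted p = 0.115). Taf1b stood at 58.9, 47.0 and 48.5 CPM untreated, 52.4, 41.3 and 43.9 CPM at 1 h, 49.9, 41.9 and 45.0 CPM at 2 h and 43.4, 36.6 and 40.2 CPM at 4 h and fell at 4 h, at -0.36 ± 0.12 (adjusted p = 0.037). Without the block it was the 1 pathway gene called lower, and in each clone its 4 h library was lower than the untreated one.

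Of the assembly factors outside the member list, those with the smallest p in the F test were Rrp7a and Pwp2 of the small subunit processome and Surf6 and Lsg1 of the large subunit. Rrp7a, whose exons overlap Serhl on the other strand, rose by 0.88 ± 0.12 at 4 h (adjusted p = 0.000456), and Pwp2 by 0.49 ± 0.075 (adjusted p = 0.000903). Surf6 rose by 0.49 ± 0.062 at 4 h (adjusted p = 0.00037), and Lsg1, a GTPase of the last cytoplasmic steps, by 0.49 ± 0.067 (adjusted p = 0.000514). These sizes lie within the range of the members' own changes.

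Levels of the members were high before treatment. Divided by exon length, the median untreated level of the 41 members was 48.5 CPM per kb, beside 4.34 CPM per kb over the 14043 tested genes with a length, and 41 of 41 lay above the latter. Npm1 was at 886 CPM per kb, Ncl at 213, Nhp2 at 165 and Ddx21 at 162. The lowest were Fbl at 4.45, Wdr12 at 11.2 and Polr1e at 12.4. Fbl thus stood far below its partners Nop56, at 82.8 CPM per kb, and Nop58, at 58.6 CPM per kb. Of the 50-base stretches of its transcripts 19.7% also occur in transcripts of other genes, and how the authors' counting treated multiply mapped reads is not given in the sources used here.

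The gene models bear on some of these counts. By GENCODE M21 (GRCm38), 17 members have exons that overlap another gene: Nop56, Nop58, Dkc1, Nhp2, Nop14, Rrp9, Wdr43, Bysl, Noc2l, Rrp1b, Bop1, Pes1, Wdr12, Gnl3, Polr1a, Ncl and Mybbp1a. Of the 24 tested members without such overlap, 15 rose at 2 h (62.5%) and 18 at 4 h (75%). More than 5% of 50-base stretches were shared with other genes in 9 members, among them Npm1 (24.3%), Pes1 (23.3%), Fbl, Noc2l (19.2%) and Nop56 (18.6%), and 16 members shared none. Wdr74, with its 1 read, was among those that shared none. snoRNA genes lie within 6 of the 41 tested members (14.6%), against 382 of 13836 protein-coding genes tested (2.76%): Nop56 holds 5, Nop58 4, Wdr43, Gnl3 and Ncl 3 each, and Dkc1 1. Reads from these small RNAs and from their host genes cannot be told apart where they overlap in the counts.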

How the data were processed

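Raw read counts by gene symbol were deposited by the authors in 1 table, with a column for each of the 12 libraries. Per the submitters' processing notes the tools were STAR, featureCounts and DESeq and the genome build mm10; the sources used here give neither their versions nor the annotation, the strand setting or the treatment of multiply mapped reads. Per the labels' protocols, ribosomal RNA was depleted from total RNA before library preparation with the NEB Next Ultra 2 kit. The sample titles and the design give all 4 times, while the treatment protocol names only 0 h and 2 h.

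Genes were filtered with edgeR's filterByExpr (minimum count 10, minimum total 15), scaled by TMM and fitted with a quasi-likelihood model of 1 term per group over all 12 libraries (edgeR 4.0.16, R 4.3.3; 8 residual degrees of freedom). Tests were 2-sided with Benjamini-Hochberg adjustment over 14185 genes at 0.05. Standard errors were obtained from the F statistic and are approximate. Log2 CPM used a prior count of 2. Alternatives were DESeq2 1.42.0, voom in limma 3.58.1, other scalings, no filter, the compared groups alone, a clone block and omitted libraries or clones. For a comparison of 2 groups, the single libraries left out were those of its own groups. Libraries of the other times were not left out there, although they enter the estimate of spread.

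The letter marks the same clone at each time and so pairs the libraries. Deviations from group means correlated at r = 0.184 to 0.684 in 18 same-clone pairs and at -0.568 to -0.024 in 36 others. Deviations within a group sum to 0 in each gene, so positive same-clone values push the others below 0. The negative range is therefore no separate sign of pairing. The block left 6 residual degrees of freedom and took the biological coefficient of variation to 0.0924, against 0.163 without it. Within groups, counts of any pair of libraries differed beyond sampling noise (ratio of chi-square to its degrees of freedom 18.5 to 103), so none was a copy. That cultures other than the clones were independent is not stated, and p-values measure the spread between these libraries.

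Members, roles and lists were chosen with earlier results of these data known. Every tested member is named with a log2 change. Given in every library are, per role, the 2 members (1 in roles of 3 or 4) with the smallest F-test p and the 1 with the largest, the 3 largest changes and the 1 most negative at 4 h, and all Pol I subunits. From each further list the 2 with the smallest F-test p are named, plus any called against its list. Taf1d is named as well, to complete the TAF1 proteins, and Twistnb for its course beside that of Polr1c. Promoters are RefSeq's (GRCm38.p6), and 50-base stretches and gene models are from GENCODE M21. The promoters printed and the division by motif were chosen after the values were seen.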

Additional observations from a re-analysis of the deposited data

How the results depend on the processing

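At each of the 3 times, called changes of members given in full kept their direction under every alternative run: 314 recomputed values stayed past the threshold and 86 did not. Of the values for uncalled changes, 454 kept side and direction, 30 passed the threshold and 28 turned their sign. Counts of called members at 1 h were 15 with the clone block and 1 with DESeq2, and 0 in each of the omissions of 1 library. At 2 h a fit of the 2 groups alone called 14 members, where 10.8% of all genes were called. The count at 2 h was 15 among the 24 members whose exons overlap no other gene. Counts there were 0 without clone b and 0 without clone c, and 6 to 28 when 1 library of either group was left out. At 4 h they were 19 without clone b, 11 without clone c and 18 of the 24 without overlap, and 24 to 35 when 1 library was left out. For 2 h against 1 h they were 19 with the block, 8 with DESeq2, 1 without clone a and 0 to 1 without 1 library. Of all genes, 12.6%, 4.26%, 2.09% and 0 to 1.1% were called in these settings. For 4 h against 2 h they were 7 with the block, 1 with DESeq2, 1 without clone a and 0 to 2 without 1 library. The shares of all genes called there were 22%, 9.68%, 8.42% and 0.882 to 10.2%. The F test called 4 members without clone b, 0 without clone c and 19 to 34 without 1 library. Other pathway genes called at 1 h were 19 with the block and 2 with DESeq2, where 6.99% and 1.06% of all genes were called. At 2 h they were 31 with upper quartile scaling and 28 in the fit of the 2 groups alone, where 15.3% and 10.8% were. Such a fit gave 49 at 4 h, where 23% of all genes were called. Upper quartile scaling put the median of all genes at -0.11 at 2 h and -0.092 at 4 h. The cause of the calls lost or gained was not tested. Against untreated cells, the block changed no call of a member given in full other than those printed with a blocked value.

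Signs turned as follows. At 1 h, with 1 library left out, log2 changes ran from -0.073 to 0.015 for Nop10, -0.064 to 0.037 for Utp20, -0.036 to 0.051 for Noc3l, -0.037 to 0.33 for Ebna1bp2, -0.0027 to 0.035 for Polr1b, -0.083 to 0.031 for Npm1 and -0.033 to 0.023 for Polr1e. Without clone a they were 0.081 for Utp20, 0.069 for Noc3l, -0.0074 for Polr1b, 0.032 for Npm1 and 0.022 for Polr1e, and without clone b 0.016 for Polr1e. Noc3l was at 0.0021 with RLE size factors, 0.016 without the filter and 0.0060 with DESeq2, Polr1e at 0.00010, 0.015 and 0.0037, and Polr1b at -0.034 with upper quartile scaling, which also put Npm1 at -0.0061 at 2 h and -0.0029 at 4 h. Polr1c at 4 h ran from -0.076 to 0.028 with 1 library left out and stood at 0.038 without clone b. What depth limits was not tested. Wdr74, with 1 read over all libraries, did not pass the filter on low counts.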
